A study of Mus musculus with 2 samples.

Results

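Cell-cell junction genes were examined in EB5 mouse embryonic stem (ES) cells, grown without feeder cells on gelatin, that had been transfected with siRNA against Klf4. The cells also received the plasmid pCAGEGFP-IP, spent 24 h in culture and were then kept for 24 h in puromycin, which enriches transfected cells, before total RNA was taken. Each of 2 arrays compared siKlf4 ES cells, labelled with Cy3, with Universal Mouse Reference RNA, labelled with Cy5, a pool made from equal amounts of RNA of 11 cultured mouse cell lines (embryo, embryo fibroblast, kidney, liver, macrophage, B and T lymphocyte, mammary gland, myoblast, skin and testis). The samples used here hold no ES cells without Klf4 siRNA, so every ratio compares siKlf4 ES cells with a mixture of other cell types and none measures what the siRNA did. Both arrays had the same dye orientation, and a dye effect on a probe cannot be told apart from a difference between the cells and the pool.

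The genes were E-cadherin (Cdh1), N-cadherin (Cdh2), Epcam, the claudins Cldn3, Cldn4 and Cldn7, occludin (Ocln), Jam2, desmoplakin (Dsp) and Tjp1, 10 in all. They were picked by symbol, and a gene counted as present when a gene probe on both arrays carried an accession that mouse RefSeq assigns to it. This found 9 of the 10 genes, each with 1 probe, among 21052 gene probes on the array. No level is given for Dsp, which no probe was named for.

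Cadherins join neighbouring cells through their outer domains and hold catenins and the actin skeleton on the inside, which makes the adherens junction. Claudins, occludin and the JAM proteins form and line the tight junction nearer the apical surface, where Tjp1 anchors them to actin. ES cells and the early embryo's cells adhere through E-cadherin, and its replacement by N-cadherin is the textbook sign of an epithelial cell turning mesenchymal.

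Values are given in 2 forms. Signals are mean spot intensities above the local background, in scanner units before dye normalization, with array 1 before array 2. Log2 ratios are siKlf4 ES cells over the pool after background correction and loess, so they are not the plain quotient of the signals. The 2 channels carry different dyes, and the ES channel read higher at the median gene probe. Signals and summed signals of the 2 channels are therefore not on 1 scale, and only the ratios compare them. A gene passed the test at an adjusted p under 0.05 (limma over 21028 probes, Benjamini-Hochberg) with the same sign on both arrays. Of all probes 31.7% passed as higher and 31.5% as lower in the ES cells, so passing alone was common. A second count required at least a 2-fold difference, which 5.08% of probes reached upwards and 5.19% downwards. Of the 10137 named genes tested, each by its brightest probe, 6.73% were at least 2-fold higher and 7.5% lower. Each count of passed genes below stands against these shares. The labels do not say whether the 2 arrays stand for separate cultures, and the p-values cover only the spread between these arrays.

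The ES cell label was checked against marker genes. Of 7 ES cell markers, 6 were measured and 6 were higher than in the pool, 5 of them at least 2-fold, among them Sox2 (5.69), Zfp42 (5.01) and Pou5f1 (2.86). The sixth, Esrrb, exceeded the negative control spots in neither channel. The list's summed signal was 47315 and 63805 in the ES cells against 2525 and 2954 in the pool. All 7 fibroblast markers were lower, with summed signals of 2344 and 2724 in the ES cells against 15317 and 14860 in the pool, and 2 of them, Col6a1 and Postn, did not exceed the negative control spots in the ES channel. Klf4 itself stood at 0.51 ± 0.11 (SD, n = 2; limma, adjusted p = 0.000389). The median gene probe read 308 and 355 units in the ES channel against 246 and 264 in the reference channel.

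Jam2, Cdh1 and Cldn4 were the junction genes that stood well above the pool, by 15.0-fold, 8.36-fold and 4.07-fold. Cldn3, Epcam and Ocln were higher by less than 2-fold, Cldn7 and Tjp1 did not pass the test, and Cdh2 was the measured member that passed as lower. Of the 9 measured genes 6 passed as higher and 1 as lower. At least 2-fold higher were 3 (33.3%, against 6.73% of all named genes), 1 was at least 2-fold lower (11.1%, against 7.5%) and 5 were under 2-fold. The 9 genes had a median log2 ratio of 0.50, against -0.01 over all probes. The genes were named with earlier results of these arrays known, so these counts describe the set and carry no test.

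**Figure D1:**
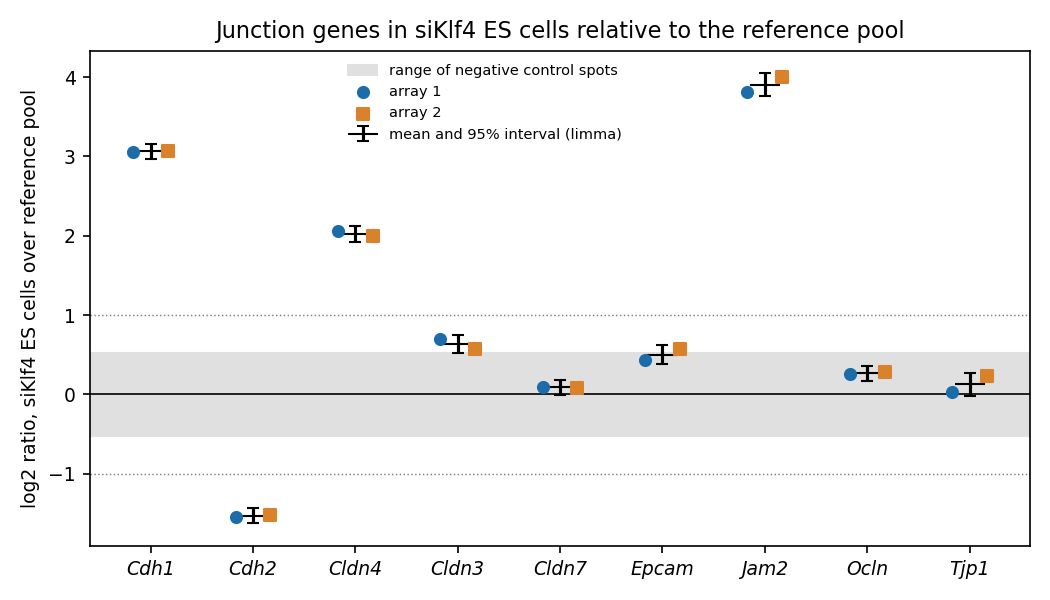
Log2 ratio of siKlf4 ES cells over the reference pool (vertical axis) for the 9 measured junction genes. Circles are array 1, squares array 2, bars the mean with its 95% interval from limma, the grey band the range of ratios at negative control spots and dotted lines a 2-fold difference. Jam2, Cdh1 and Cldn4 lie above the upper dotted line, Cdh2 lies below the lower one, and the means of Epcam, Ocln, Tjp1 and Cldn7 lie inside the band.

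E-cadherin is the adhesion molecule that holds ES cell colonies together. The Cdh1 probe read 2253 and 2589 units in siKlf4 ES cells, against 276 and 273 units in the pool. On each array the ES signal was far above the pool signal. The log2 ratio was 3.06 ± 0.012 (SD, n = 2), or 8.36-fold, with a 95% interval of 2.97 to 3.16 (limma, adjusted p = 3.35e-07). Cdh1 ranked 50 among 21028 probes from the top, and its arrays differed by only 0.02 on the log2 scale. In RNA from whole cultures, fewer cells with a transcript and less of it per cell cannot be told apart, and this holds for every ratio here.

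N-cadherin is the cadherin of neural and mesenchymal cells. The Cdh2 probe read 127 and 142 units in siKlf4 ES cells, against 189 and 205 units in the pool. Both ES signals lay under the negative control limit of that channel, the 95th percentile of its control spots without a target, 155 and 178 units, whereas both pool signals exceeded the pool's limits of 40.9 and 58.4 units. The ES level is therefore only bounded: after background correction, Cdh2 was at least 2.17-fold lower in the ES cells than in the pool, with a fitted log2 ratio of -1.53 ± 0.019 (limma, adjusted p = 1.87e-06). The bound holds only with background correction: without it Cdh2 stood at -0.43, under a 2-fold difference but still past the test, and Cdh1 at 2.13.

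Of the 15 cadherins listed, 12 were measured. Cdh1 was the 1 cadherin that passed as higher (2 with background from negative control spots, 3 with median centring). Another 5 passed as lower, 3 of them at least 2-fold, and the list's median was -0.08. Over all probes 31.7% passed as higher and 31.5% as lower. Without background correction 3 cadherins passed as lower and 1, Cdh11, by 2-fold. Among probes above the negative control limit 2 cadherins passed as lower and 1 by 2-fold. Cdh11, the cadherin of osteoblasts and mesenchyme, read 159 and 158 units in siKlf4 ES cells, against 722 and 714 units in the pool, a log2 ratio of -2.68 ± 0.13 (adjusted p = 1.11e-06), and its ES signal was above the negative controls on 1 array only. Cdh13, which is tethered to the membrane by a lipid anchor, read 176 and 185 units in the ES cells, against 308 and 292 units in the pool, a log2 ratio of -1.36 ± 0.0015 (limma, adjusted p = 2.57e-06). Both genes were clearly dimmer in the ES channel than in the pool channel on both arrays. In the mesenchymal gene list, which includes Cdh11, 7 of 7 measured genes were lower, 6 at least 2-fold, among them Vim (-3.81), Sparc (-2.55) and Pdgfrb (-1.99). The fibroblast markers given above were lower too, and their part in the cadherin ratios was not tested.

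Cldn4 and Cldn3 are sealing claudins of simple epithelia. Cldn4 gave 940.0 and 1325 units in siKlf4 ES cells, against 202 and 289 units in the pool. It was brighter in the ES channel on both arrays. Its log2 ratio was 2.03 ± 0.049 (SD, n = 2), or 4.07-fold, with an interval of 1.93 to 2.13 (limma, adjusted p = 1.06e-06), and it ranked 194 from the top. Cldn3 gave 897 and 949 units in siKlf4 ES cells, against 579 and 583 units in the pool, a log2 ratio of 0.64 ± 0.087, or 1.56-fold (limma, adjusted p = 9.39e-05). The ratio of Cldn4 exceeded that of Cldn3 by 1.39 ± 0.038. The annotated starts of these neighbouring genes lie 39.3 kb apart on chromosome 5, on opposite strands.

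Cldn7 is a claudin of the lateral membrane that binds Epcam in epithelia. It gave 713 and 815 units in siKlf4 ES cells, against 701 and 706 units in the pool. Its log2 ratios were 0.09 on both arrays, and the mean did not pass the test (limma, adjusted p = 0.083, interval -0.0036 to 0.18). With median centring in place of loess the mean was -0.13, with an adjusted p of 0.0484, so Cldn7 has no direction that both normalizations share. The ratio of Cldn4 exceeded that of Cldn7 by 1.94 on the log2 scale.

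Of 21 listed claudins 18 were measured, 5 passed as higher, 5 as lower and 8 did not pass. The lower ones numbered 1 without background correction and 3 among probes above the negative control limit. Cldn4 was the only claudin with a 2-fold difference in either direction, and the list's median was 0.02. It made up 5.56% of the measured claudins, where 6.73% of all named genes were at least 2-fold higher. Except for Cldn4 and Cldn3, all measured claudins had ratios within the range seen at negative control spots, where the largest absolute log2 ratio was 0.52. Cldn8, a claudin of the distal nephron, stood at 0.32 (adjusted p = 0.000894) and Cldn10, which forms ion channels between cells, at -0.20 (limma, adjusted p = 0.00492). Cldn14 was left out because its spot was marked as an outlier.

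Epcam is a homophilic adhesion protein of epithelia and ES cells. It gave 974 and 1389 units in siKlf4 ES cells, against 783 and 889.5 units in the pool. The log2 ratio was 0.50 ± 0.10 (SD, n = 2), or 1.42-fold (limma, adjusted p = 0.000333), with 0.43 on array 1 and 0.57 on array 2. Epcam's ratio exceeded that of its binding partner Cldn7 by 0.41 ± 0.10. Although past the test, 0.50 lies just inside the range of ratios at negative control spots, which were far dimmer than the Epcam probe.

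Jam2 is an immunoglobulin-like adhesion molecule of tight junctions and endothelium that pairs with Jam3. It gave 1949 and 2547 units in siKlf4 ES cells, against 116 and 120.0 units in the pool, far apart on both arrays. The log2 ratio was 3.91 ± 0.14 (SD, n = 2), or 15.0-fold, with an interval of 3.76 to 4.05 (limma, adjusted p = 4.99e-07), and Jam2 ranked 15 among all probes. Its relatives did not follow at that size. Jam3 read 367 and 420 units in siKlf4 ES cells, against 219 and 231 units in the pool, and stood at 0.40 ± 0.0025 (limma, adjusted p = 0.000269). F11r, the JAM of epithelial cells, stood at 0.13 (limma, adjusted p = 0.0249) and at -0.0035 with median centring. The ratio of Jam2 exceeded that of Jam3 by 3.50 ± 0.14 and that of F11r by 3.77 ± 0.17.

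Probes of Jam2, Epcam and Cldn7 are printed because they carry the contrast between a junction gene far above the pool, one slightly above it and one level with it. They are the array's own oligonucleotides, from chromosomes 16, 17 and 11, each with 60 bases in the sense of the transcript and 1 open forward reading frame, printed 5′ to 3′ with no part marked.
Jam2: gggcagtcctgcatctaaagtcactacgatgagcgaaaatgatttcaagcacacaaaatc
Epcam: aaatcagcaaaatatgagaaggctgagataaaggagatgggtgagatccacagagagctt
Cldn7: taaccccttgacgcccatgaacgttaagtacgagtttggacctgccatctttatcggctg
The Jam2 probe is the one read at 1949 and 2547 units in the ES cells, Epcam's at 974 and 1389 and Cldn7's at 713 and 815, and these levels are not comparable between probes.

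Ocln, the membrane protein for which occluding junctions are named, gave 184 and 191 units in siKlf4 ES cells, against 65.6 and 60.9 units in the pool. Both channels were close to their negative control limits, and the log2 ratio was 0.27 ± 0.018, or 1.20-fold (limma, adjusted p = 0.00164). Without background correction it was 0.07. Esam, an endothelial relative of the JAM proteins, was lower at -0.26 (limma, adjusted p = 0.00191). In the list of 9 tight junction membrane proteins 5 were measured, 4 passed as higher and 1 as lower, and only Jam2 reached 2-fold.

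Tjp1, the zonula occludens scaffold, gave 2568 and 3550 units in siKlf4 ES cells, against 2788 and 2803 units in the pool. Its log2 ratio was 0.03 on array 1 and 0.23 on array 2, a mean of 0.13 ± 0.14 that did not pass the test (limma, adjusted p = 0.0979, interval -0.01 to 0.27). It and Jam2 were the members whose arrays differed most, by 0.20 on the log2 scale. Median centring put Tjp1 at -0.02.

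In the order of the ratios, Jam2 came first, then Cdh1, Cldn4, Cldn3, Epcam, Ocln, Tjp1, Cldn7 and Cdh2. The array values of neighbours overlapped for Tjp1 and Cldn7 only. Cldn3 and Epcam were barely apart, by 0.27 on array 1 and 0.0057 on array 2. In the ES channel all 9 probes were brighter on array 2, as was the median gene probe.

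**Figure D2:**
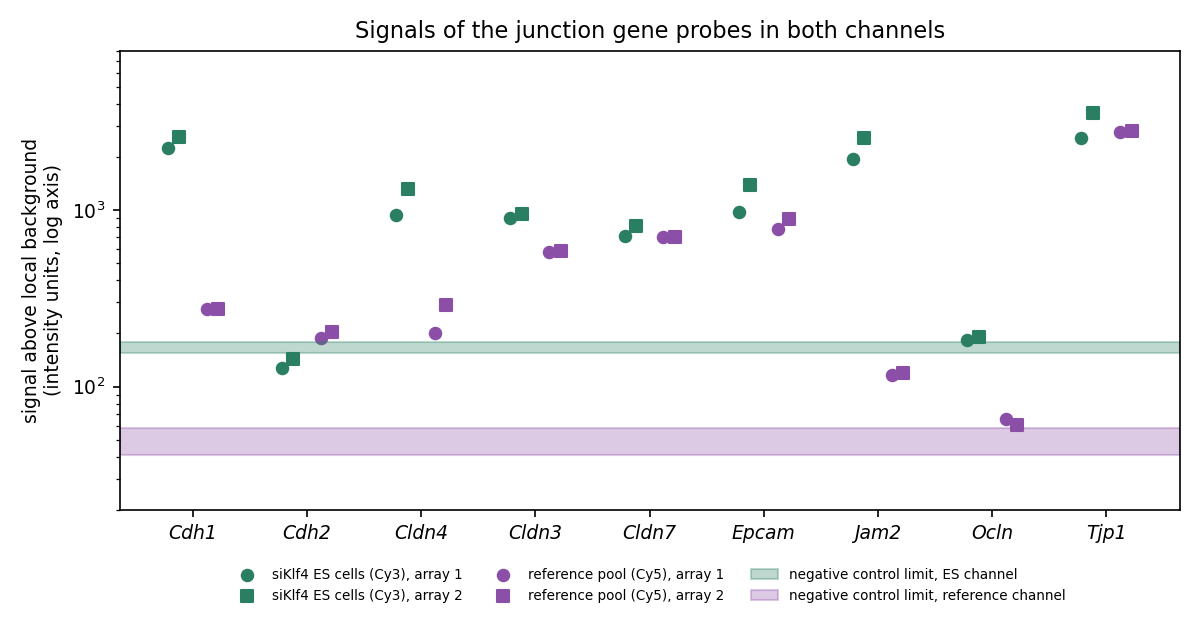
Signals above local background (vertical log axis, intensity units) of the 9 junction gene probes, with siKlf4 ES cells in green left of the reference pool in purple. Circles are array 1 and squares array 2, and the shaded bands span each channel's negative control limits (95th percentile) on the 2 arrays. Cdh2 is the only probe with both ES signals under the ES band, and Ocln lies just above both bands.

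Among proteins that tie cadherins to actin, 12 were listed and 8 measured, of which 3 passed as higher, 2 of them by at least 2-fold, and 2 as lower (1 without background correction, with median centring or among probes above the negative control limit). Ctnnal1, a relative of the alpha-catenins, read 3076 and 3853 units in siKlf4 ES cells, against 606 and 729.5 units in the pool, a log2 ratio of 2.39 ± 0.11 (limma, adjusted p = 1.28e-06). Ctnna1, the alpha-catenin of epithelia, read 1194 and 1324 units in siKlf4 ES cells, against 634 and 593 units in the pool, a log2 ratio of 1.04 ± 0.026 (limma, adjusted p = 6.74e-06). Both were brighter in the ES cells on both arrays, and Ctnna1 came under 2-fold with median centring, at 0.81, and without background correction, at 0.75. Jup (plakoglobin) stood at 0.14 (limma, adjusted p = 0.0222). Ctnnb1, the beta-catenin that binds E-cadherin directly, was named after its value was seen: it stood at 0.11 and did not pass (limma, adjusted p = 0.124).

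Nectins start contacts that cadherins then strengthen. Of 8 nectins and relatives 6 were measured, 2 passed as higher, 1 as lower, and none reached 2-fold. In each other setting except without background correction, 2 passed as lower. Nectin2 stood at 0.81 ± 0.017 (limma, adjusted p = 1.63e-05), reading 1029 and 1175 units in siKlf4 ES cells, against 634 and 620.0 units in the pool. Pvr, the poliovirus receptor and a nectin partner, stood at -0.89 ± 0.14 (limma, adjusted p = 6.18e-05), reading 895 and 1231 units in the ES cells, against 1970 and 2028 units in the pool. Thus these 2 related receptors lay on opposite sides of the pool. Median centring moved Pvr past 2-fold, to -1.10.

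The list of scaffold and polarity proteins held 26 genes, 18 of them measured, with 8 higher, 4 lower and 6 not passed. The lower ones numbered 2 without background correction and 1 among probes above the negative control limit. Llgl2, a basolateral polarity protein, read 4591 and 5159 units in siKlf4 ES cells, against 1582 and 1476 units in the pool, a log2 ratio of 1.69 ± 0.016 (limma, adjusted p = 1.4e-06). Amotl2, an angiomotin that binds actin and the Hippo factor Yap, read 2929 and 4100 units in siKlf4 ES cells, against 8434 and 8560 units in the pool, a log2 ratio of -1.33 ± 0.14 (limma, adjusted p = 1.2e-05). These were the only 2 genes of the list with a 2-fold difference, on opposite sides. Tjp3, a sister of Tjp1, stood at 0.91 (limma, adjusted p = 1.03e-05) and the apical determinant Crb3 at 0.79. The polarity kinase Prkcz stood at 0.73, although its dimmer probe gave 0.28. Without background correction Tjp3 stood at 0.46, Crb3 at 0.22 and Prkcz at 0.41. Magi3, a scaffold of tight junctions, was not above the negative controls in the ES cells and was at least 1.11-fold lower there with background correction, and at -0.10 without it.

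Desmosomes join intermediate filaments of neighbouring cells. Of 14 desmosomal genes 10 were measured. Of these 6 passed as higher (3 among probes above the negative control limit) and 4 as lower, against 31.7% and 31.5% of all probes. Perp, a membrane protein of desmosomes, was the only gene with a 2-fold difference, reading 574 and 741 units in siKlf4 ES cells, against 1603 and 1546 units in the pool (-1.26 ± 0.16, limma, adjusted p = 2.07e-05), and it stood at -0.86 without background correction. Of the plakophilins, the plaque proteins, Pkp2 stood at 0.78 (limma, adjusted p = 6.85e-05) and Pkp1 at -0.86 (limma, adjusted p = 1.99e-05). The desmosomal cadherins Dsc3 (0.32), Dsc2 (0.27) and Dsg1a (0.26) passed as higher, but Dsc2 and Dsg1a were above the negative controls in neither channel. Dsc3 exceeded the pool's negative control limit on 1 array only and stood at 0.083 without background correction.

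Connexins form gap junctions, through which ES cells exchange small molecules. Of 17 connexins 13 were measured, 4 passed as higher, none as lower (3 with median centring) and 9 did not pass. Gjc1 read 1625 and 1868 units in siKlf4 ES cells, against 1233 and 1136 units in the pool, a log2 ratio of 0.61 ± 0.067 (limma, adjusted p = 8.56e-05). Gjb5 stood at 0.48 and Gja10 at 0.21, and the list's median was 0.05. Gja1, the widely used connexin, was named after its value was seen: it stood at 0.06 and did not pass (limma, adjusted p = 0.224).

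Over the 8 junction lists together, 121 genes were listed and 89 measured. Of these, 32 passed as higher, 22 as lower and 35 did not pass, and the median log2 ratio was 0.05. At least 2-fold higher were 7 genes (7.87%, against 6.73% of all named genes), among them Jam2, Cdh1, Ctnnal1, Cldn4, Llgl2 and Ctnna1. At least 2-fold lower were 5 genes (5.62%, against 7.5% of all named genes): Cdh11, Cdh2, Cdh13, Amotl2 and Perp. Of all 10137 named genes tested, 682 passed the 2-fold limit upwards and 760 downwards, so the junction genes as a whole stood close to the background in both directions. Ratios beyond the range of the negative control spots were seen for 23 of the 89.

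**Figure D3:**
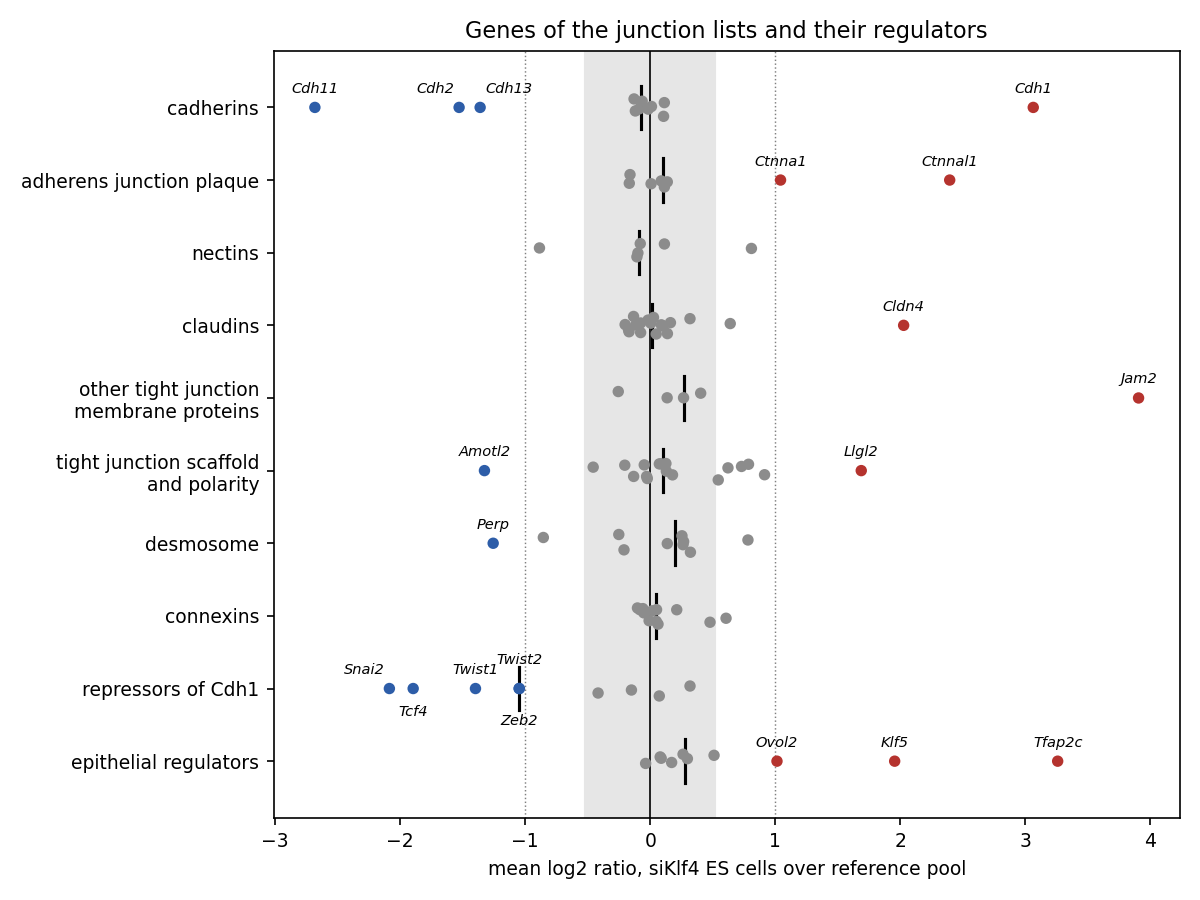
Mean log2 ratio of siKlf4 ES cells over the reference pool (horizontal axis) of the measured genes in 8 junction lists and in lists of Cdh1 repressors and epithelial regulators, with 1 point per gene and a black bar at each list's median. Red and blue points are genes at least 2-fold higher and lower, the grey band is the range at negative control spots and dotted lines mark 2-fold. Most junction genes cluster near 0 with a few far to either side, while 5 of the 9 repressors lie left of the lower dotted line.

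Snail, Zeb and Twist proteins bind E-boxes and are known to switch off Cdh1 in mesenchymal cells. Of 10 listed repressors of Cdh1, 9 were measured, 6 passed as lower, 1 as higher and 2 did not pass, and the list's median was -1.05. The 2-fold limit was passed by 5 (55.6%), all of them lower, against 7.5% of all named genes at least 2-fold lower. Snai2 (Slug) read 237 and 294 units in siKlf4 ES cells, against 929 and 998 units in the pool, a log2 ratio of -2.09 ± 0.064 (limma, adjusted p = 1.09e-06). Tcf4, a basic helix-loop-helix factor, stood at -1.90 ± 0.13, Twist1 at -1.40 ± 0.15, Zeb2 at -1.05 ± 0.012 and Twist2 at -1.05 ± 0.066. Snai1 (Snail) was lower by less than 2-fold, at -0.42 (limma, adjusted p = 0.00027). The 2 that did not pass, Snai3 (0.07) and Zeb1 (-0.15), were named after their values were seen (limma, adjusted p = 0.139 and 0.0543). Zeb1 exceeded the ES channel's negative control limit on neither array. Without background correction only 2 of the 5, Snai2 (-1.10) and Tcf4 (-1.64), kept a 2-fold difference. The higher one, Gsc, a homeodomain protein, stood at 0.32 (limma, adjusted p = 0.00108), was named after its value was seen and exceeded the pool's negative control limit on 1 array only. The fibroblast markers, summed above, were lower too, and their part in the ratios of these factors was not tested.

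Of 14 listed regulators known for epithelial programmes 10 were measured, 7 passed as higher, none as lower and 3 did not pass. The 7 include Klf4, the siRNA target, whose ratio is given above. By at least 2-fold 3 were higher, the list's median was 0.28, and 7 of the 10 lay inside the range that negative control spots covered. Tfap2c, a factor of trophoblast, germ cells and epithelia, read 950.1 and 1006 units in siKlf4 ES cells, against 56.2 and 60.5 units in the pool, a log2 ratio of 3.26 ± 0.079 (limma, adjusted p = 4.24e-07). Klf5, a Klf4 relative active in ES cells and epithelia, read 1496 and 1744 units in siKlf4 ES cells, against 367 and 453 units in the pool, a log2 ratio of 1.95 (limma, adjusted p = 5.1e-06). Ovol2, a repressor of mesenchymal genes, stood at 1.01 ± 0.061 (limma, adjusted p = 1.04e-05) and at 0.31 without background correction. Grhl1 stood at 0.30 and Tfap2a at 0.26, with Tfap2a above the negative controls in neither channel.

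Genes of simple epithelium and trophectoderm were mostly lower in the ES cells than in the pool. Of 8 listed 6 were measured, 5 passed as lower, 4 of them at least 2-fold, and 1 as higher, with a list median of -1.26. The summed signal was 3504 and 3910.0 units in siKlf4 ES cells, against 24354 and 24525 units in the pool. Most of the pool's sum came from Krt18 alone, which read 19468 and 19458 units there and 1112 and 1252 units in the ES cells. The keratin Krt18 stood at -4.09 ± 0.062 (limma, adjusted p = 3e-07), Krt7 at -1.32, Krt19 at -1.20 and the trophoblast factor Gata3 at -1.37. Without background correction Krt18 stood at -3.64, and Krt7, Krt19 and Gata3 came under 2-fold. Of 9 listed epithelial surface proteins and proteases 8 were measured, 4 passed as higher, none as lower (1 with median centring) and none reached 2-fold. The membrane protease St14 (matriptase) stood at 0.87 and its inhibitor Spint2 at 0.90 (limma, adjusted p = 1.27e-05 and 1.46e-05). Of 8 listed endoderm markers 6 were measured, 3 passed as lower and 3 did not pass, with summed signals of 1571 and 2004 units in the ES cells and 1468 and 1771 units in the pool. Afp, the fetal serum protein, was the 1 marker with a fitted ratio past 2-fold, but its ES level was only bounded. It was at least 1.78-fold lower in the ES cells with background correction, and stood at -0.44 without it.

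The promoters were searched for CAGGTG, the E-box that Snail and Zeb proteins bind, whose other strand reads CACCTG. RefSeq windows on GRCm38.p6, from 250 bases before the annotated start to 50 after it, were at hand for 7 of the 10 genes, in 9 windows. Cdh1, Cdh2 and Jam2 were not searched here. The E-box was in 7 of these windows and 6 of the 7 genes, Dsp among them and Tjp1 being without it, and in 20.2% of 32851 windows and 22.6% of 27025 genes overall. CACCC, the core of Krüppel-like factor sites, with GGGTG on the other strand and contained in neither E-box reading, was in all 9 windows and in 57.5% of windows overall. A match is a run of letters, not a shown binding site.

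Cldn4 and Epcam are printed as examples of genes that passed as higher in the ES cells and carry the E-box near the start. Each run covers 250 bases before the start and 20 from it on, 5′ to 3′ on the gene's strand, and Cldn3 is shown by 30 bases around its match. Capitals mark the E-box on either strand.
Cldn4, chr5:134946915-134947184, minus strand: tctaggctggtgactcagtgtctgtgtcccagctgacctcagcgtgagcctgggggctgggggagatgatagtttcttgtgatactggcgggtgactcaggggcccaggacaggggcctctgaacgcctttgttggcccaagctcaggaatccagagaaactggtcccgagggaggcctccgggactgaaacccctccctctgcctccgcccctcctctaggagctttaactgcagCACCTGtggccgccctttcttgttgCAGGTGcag
Epcam, chr17:87635729-87635998, plus strand: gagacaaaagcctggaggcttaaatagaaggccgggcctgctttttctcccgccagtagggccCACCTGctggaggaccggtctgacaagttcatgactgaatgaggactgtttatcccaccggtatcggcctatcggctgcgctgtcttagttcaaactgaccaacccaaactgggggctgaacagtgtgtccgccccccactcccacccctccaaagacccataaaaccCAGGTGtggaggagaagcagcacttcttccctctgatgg
Cldn3, chr5:134986234-134986263, plus strand: aaagccacaggCAGGTGcaggggcagtctc
In Cldn4 the matches begin 14 bases before and 11 bases after the start, in Epcam 187 and 19 bases before it and in Cldn3 31 bases after it. Cldn4, Cldn3 and Epcam differed in ratio, at 2.03, 0.64 and 0.50, with at least 1 match in each. Ocln (0.27) and Cldn7 (0.09), which are not printed, carry matches too, and Cldn7 did not pass the test.

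Without background correction Jam2 stood at 2.38 and Cldn4 at 1.21, and with the scanner software's own processed signals Jam2 stood at 4.11, Cdh1 at 3.15, Cldn4 at 2.08 and Cdh2 at -1.40. The 3 genes at least 2-fold higher were at least 2-fold higher in each of these settings.

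**Figure D4:**
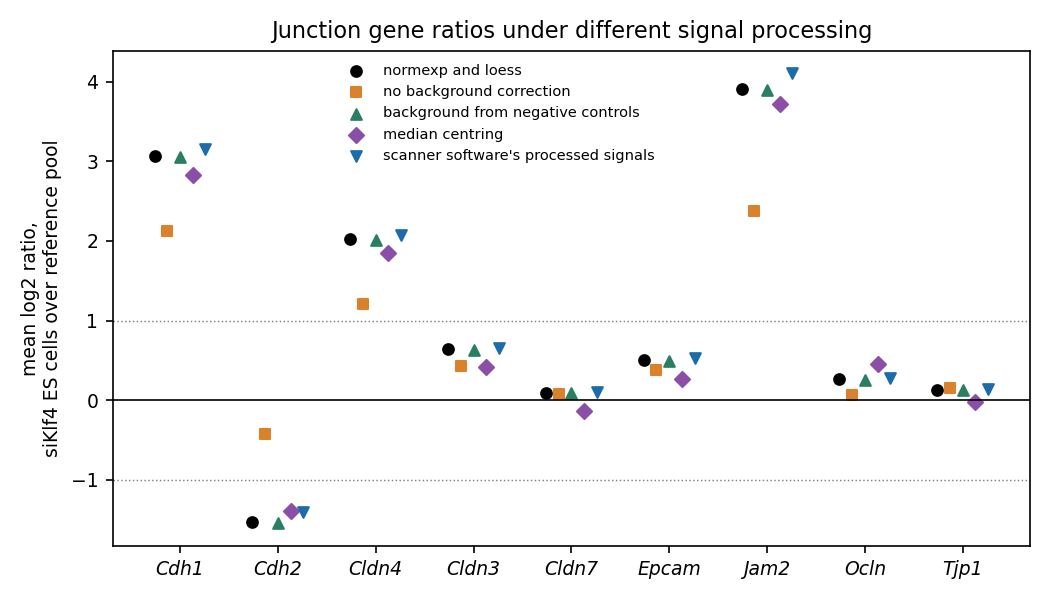
Mean log2 ratio of siKlf4 ES cells over the reference pool (vertical axis) for the 9 junction genes under 5 ways of processing the signals, each with its own symbol, and dotted lines at a 2-fold difference. Jam2, Cdh1 and Cldn4 stay above the upper line throughout, Cdh2 lies between the dotted lines without background correction, and Cldn7 and Tjp1 change sign with median centring.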

How the data were processed

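RNA abundance was measured in 2 samples of siKlf4 ES cells on two-colour Agilent arrays against a reference pool. Per the file headers, the deposited scanner files came from Agilent Feature Extraction A.7.5.1. They give intensity values, both as scanned (mean spot and local background) and processed (background subtracted locally, dyes balanced by LOWESS), and a log10 ratio of red over green. The deposited series table holds log10 values with column medians of 2.918 and 2.921, not centred. Its differences between arrays equalled those of the scanner ratios within 0.01 (log2) for 99.7% of probes, which sets scale and direction. Its making was not given in the sources used here.

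Mean signals were corrected with limma 3.58.1 (R 4.3.3) by normexp with an offset of 50 and normalised by loess within arrays, with control and outlier spots at weight 0. Outlier spots removed 24 probes. Ratios were tested against 0 with lmFit and eBayes (1 residual and 4.38 prior degrees of freedom), Benjamini-Hochberg over 21028 probes, on both arrays as 1 group. The software's well-above-background flag was set for 98.9% of gene probes and for 100% of negative controls in the ES channel, so a stricter limit was used, the 95th percentile over 162 negative control spots per channel, and a probe not above it in 1 channel on both arrays has only a bound. The number of arrays limits the precision.

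Gene names came through RefSeq accessions: 10422 received 1 symbol (10149 genes) and 10630 none. The brightest probe stood for a gene. The members, gene lists and the limit were chosen with earlier results of these data known. The rule named all members and, of each other list, at most 6 genes, those past 2-fold first, then bounds, then other passed genes. A gene that this rule gives is not reported here, nor plotted in the list figure, though counts and medians include it. Ctnnb1, Gja1, Esrrb, Gsc, Snai3 and Zeb1 were added after their values were seen. Alternatives were other background corrections, median centring, processed signals, a filter on dim probes, a variance trend and leaving out each array. Tables and plots used Python 3.11.15, pandas 2.3.3 and matplotlib 3.10.9.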

Additional observations from a re-analysis of the deposited data

How the results depend on the processing

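The 2-fold counts over all probes depended on background correction: without it 510 probes were at least 2-fold higher and 467 lower, against 1068 and 1092 with it. Cdh2, the only member at least 2-fold lower, left 0 members in that class without background correction and 0 when only probes above the negative control limit were kept, where Cdh2 was not tested and 0 members passed as lower. With median centring 2 members passed as lower, Cdh2 and Cldn7, with Cldn7 at -0.13 (limma, adjusted p = 0.0484), and without background correction Cldn7 passed as higher at 0.073 (limma, adjusted p = 0.0219). The causes were not tested. All other settings kept each member's direction and side of the threshold, apart from the sign of Tjp1, which passed in none: 135 values of the main results were unchanged by this measure, and the 8 others are those given. Of 286 values for the lists, 30 counts moved by over 1.5 times, 8 of them 2-fold counts. Leaving out an array gave 1041 to 1117 probes at least 2-fold higher and 1079 to 1120 lower, with 3 members higher and 1 lower each time. The counts with an array left out rest on the other array's ratio alone, without the adjusted p or the sign rule. Each ratio pairs the ES cells with the pool on the same array, and the samples form 1 group with no further pairing. With 2 arrays of 1 group, signals near the negative controls limit Cdh2 and Ocln most.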
